A study of Homo sapiens with 9 samples.

Results

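Oxidative phosphorylation subunits are the proteins that build the 5 enzyme complexes of the inner mitochondrial membrane, and 79 nuclear genes for them were followed here among 17958 genes. Members were rows of the values table that name 1 gene whose symbol is SDHA, SDHB, SDHC or SDHD or starts with NDUFA, NDUFB, NDUFC, NDUFS, NDUFV, UQCR, COX4 to COX8 or ATP5. Assembly factors (NDUFAF) and protein pseudogenes were left out, and the brightest row stood for a gene with several. The letters matched 80 genes, of which NDUFV1-DT, a non-coding transcript that runs away from NDUFV1, was set aside. Complex I had 34 members, complex II 3, complex III 7, complex IV 17 and complex V 18. The choice used symbols only and no measured difference, but it was made with earlier results of these data known. ATP5ME, NDUFA1, NDUFS5 and UQCRHL were named only in rows of several genes and were not used, and SDHB was not analysed here.

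The cells were HCT 116, an established human colorectal cancer line, and RNA was taken 24 hours after transfection. One group received a vector for KL-FL, which is mouse full-length klotho, one received a vector for KL1, a subdomain of mouse klotho, and the control group received pcDNA3. Klotho spans the cell membrane and serves FGF receptors as a partner for the hormone FGF23. Each group had 3 arrays, 9 in all, made from 100 ng of total RNA, and the deposited values are on a log2 scale. All groups were transfected, with JetPEI or with polyethylenimine, but no label ties a reagent to an array. Nothing says either that replicates were separate cultures. The p-values therefore reflect the spread among the arrays, possibly a technical one, and 3 arrays a group limit the precision of every value.

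Complexes I to IV form the respiratory chain, which passes electrons from NADH and succinate to oxygen and pumps protons out of the matrix, and complex V, the ATP synthase, lets protons back to make ATP. Complex I takes electrons from NADH, complex II from succinate, complex III hands them to cytochrome c and complex IV hands them to oxygen. Complex II is wholly nuclear-encoded, while the other complexes mix nuclear subunits with subunits encoded by mitochondrial DNA. The nuclear genes are known targets of shared activators, among them NRF1, the ETS factor GABP and YY1. Intestinal epithelium and lines derived from it use both glycolysis and respiration. The rows used here named 0 of the 13 mitochondrially encoded subunits, so the text concerns the nuclear part alone.

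Array medians over genes lay between 5.38 and 5.42. One array, KL-FL replicate 3, was the least like the others, at a median correlation of 0.99701 with them over genes, KL1 replicate 2 came next at 0.99793, and the remaining 7 lay between 0.99859 and 0.99886. Most KL-FL differences whose sign turned or whose size moved clearly without KL-FL replicate 3 are given below with and without it. The human KL probe set read 3.19 ± 0.046 in KL-FL, 3.19 ± 0.067 in KL1 and 3.05 ± 0.014 in control cells (log2, SD, n = 3 each), and since the vectors carry mouse klotho it is a weak check of the labels. DDIT3, a stress-induced transcription factor, was the only gene called in each comparison with control, at 7.33 ± 0.13 in KL-FL, 7.46 ± 0.011 in KL1 and 6.68 ± 0.034 in control cells (adjusted p = 0.0348 and 0.00687, limma). EPCAM, an epithelial surface protein, read 9.78, 9.80 and 9.77 in KL-FL, KL1 and control cells, while the intestinal markers CDH17, KRT20, VIL1 and LGALS4 were dim. The mean log2 level of 12 epithelial markers ran from 6.99 to 7.10 over the arrays. It ran from 3.65 to 3.71 for 10 fibroblast and endothelial markers, from 3.77 to 3.86 for 8 leukocyte markers and from 4.45 to 4.54 for 8 muscle markers. The table gives no detection calls, and whether a dim gene was expressed is therefore unknown.

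Promoters were shown for the 4 members with the smallest p-values in the KL-FL comparison, COX4I1, COX6B1, NDUFA11 and NDUFS6, and for ATP5PF, the 1 member whose window held all 4 motifs searched. Each window runs from 250 bases before the transcription start site to 50 bases after its first base, 300 bases in all, 5′ to 3′ on the gene's strand (RefSeq, build GRCh38.p14). Capitals mark exact matches to the NRF1 core GCGCATG, the ETS family core CCGGAAG, the YY1 core AAGATGG or the TATA motif TATAAA, on either strand. They are COX4I1 on chr16:85799445-85799744 (plus strand), COX6B1 on chr19:35648073-35648372 (plus), NDUFA11 on chr19:5903741-5904040 (minus), NDUFS6 on chr5:1801157-1801456 (plus) and ATP5PF on chr21:25735005-25735304 (minus). The annotated ATP5PF gene reaches upstream to 25735653, beyond its window, so the start site used there is not its outermost one.
COX4I1: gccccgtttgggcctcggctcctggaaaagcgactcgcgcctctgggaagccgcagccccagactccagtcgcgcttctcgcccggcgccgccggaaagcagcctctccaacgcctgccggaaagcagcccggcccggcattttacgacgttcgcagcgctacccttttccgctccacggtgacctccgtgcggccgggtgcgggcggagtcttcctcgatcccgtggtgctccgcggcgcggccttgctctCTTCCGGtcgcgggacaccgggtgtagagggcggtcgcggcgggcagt
COX6B1: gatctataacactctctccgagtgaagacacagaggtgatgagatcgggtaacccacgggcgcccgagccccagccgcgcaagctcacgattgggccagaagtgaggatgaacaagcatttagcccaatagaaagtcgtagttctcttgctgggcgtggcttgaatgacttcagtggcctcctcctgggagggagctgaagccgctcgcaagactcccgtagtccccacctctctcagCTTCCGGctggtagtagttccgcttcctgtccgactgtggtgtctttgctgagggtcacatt
NDUFA11: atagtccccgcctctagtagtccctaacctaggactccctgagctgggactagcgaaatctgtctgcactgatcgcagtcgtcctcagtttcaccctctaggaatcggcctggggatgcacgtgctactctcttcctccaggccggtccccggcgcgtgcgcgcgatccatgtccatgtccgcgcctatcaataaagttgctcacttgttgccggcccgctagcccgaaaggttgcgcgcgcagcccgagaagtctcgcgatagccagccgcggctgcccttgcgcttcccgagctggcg
NDUFS6: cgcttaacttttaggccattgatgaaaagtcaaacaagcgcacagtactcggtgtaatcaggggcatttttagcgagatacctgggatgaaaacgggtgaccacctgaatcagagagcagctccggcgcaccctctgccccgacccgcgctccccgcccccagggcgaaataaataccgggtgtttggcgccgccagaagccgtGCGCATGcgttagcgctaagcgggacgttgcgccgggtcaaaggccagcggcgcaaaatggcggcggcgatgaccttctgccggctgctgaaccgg
ATP5PF: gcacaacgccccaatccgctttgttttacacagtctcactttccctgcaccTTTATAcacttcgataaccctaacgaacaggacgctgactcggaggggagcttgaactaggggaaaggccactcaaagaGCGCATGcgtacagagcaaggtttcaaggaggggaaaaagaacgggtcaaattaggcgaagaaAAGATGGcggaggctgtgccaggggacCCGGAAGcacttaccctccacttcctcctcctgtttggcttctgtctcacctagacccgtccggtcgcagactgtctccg
COX4I1 and COX6B1 each held the ETS core on the opposite strand, NDUFS6 held the NRF1 core on its own strand, and NDUFA11 held none of the motifs. In ATP5PF the NRF1, YY1 and ETS cores lay on its own strand, in that order toward the start site, and the TATA motif lay upstream of them on the opposite strand.

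Of the 79 members, 66 had a promoter window. The NRF1 core was in 12 of them (18.2%), against 5.87% of the windows of 15842 protein-coding genes, and the YY1 core was in 14 (21.2%), against 6.4%. The ETS core was in 17 (25.8%), against 14.2%, and TATAAA in 7 (10.6%), against 9.63%. ATP5PF, COX5B, COX6A1 and SDHD held both the NRF1 and the ETS core, which do not overlap in sequence, and 31 windows held none of the NRF1, ETS and YY1 cores. By complex, the YY1 core was in 7 of 31 windows of complex I, 2 of 6 of complex III, 4 of 13 of complex V and 1 of 14 of complex IV. Median GC content was 60.7% for members and 62.7% for all protein-coding windows. A match is a run of letters in this window and not a shown site, and no test was made of these shares.

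In KL-FL cells no subunit passed the test against control, and the members as a group lay slightly lower on an uneven set of arrays. Of the 79, 54 had a lower mean in KL-FL than in control cells and 25 a higher one, with a median log2 difference of -0.037 against 0.0099 over all genes. A lower mean was thus seen for 68.4% of members and for 42.7% of all genes. The differences ran from -0.32 (NDUFS7) to 0.17 (NDUFA3), and 14 members lay more than 0.1 lower and 1 more than 0.1 higher. At adjusted p under 0.05 limma called 0 of 79 members, where it called 0.00557% of all genes, and the smallest adjusted p was 0.688. At an unadjusted p under 0.05 it found 4 members lower (5.06%) and 0 higher, where 2.28% of all genes were lower and 4.88% higher. Counted in both directions together, these 4 became 12 when KL-FL replicate 2 was dropped and 7 when KL1 replicate 2 was. Dropping control replicate 1 left 1, and dropping control replicate 2 left 0, again in both directions together. With KL-FL replicate 3 dropped, 0 members were lower and 2 higher at that threshold. The standard errors of the members ran from 0.027 to 0.23 with a median of 0.062. In RNA from whole cultures, fewer cells carrying a transcript and less of it per cell cannot be told apart.

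The sign of the median difference in KL-FL cells rested on replicate 3. Set against the control mean, the median member was at -0.027 on KL-FL replicate 1, at 0.065 on replicate 2 and at -0.15 on replicate 3. On replicate 3, 72 of 79 members lay below the control mean (91.1%), against 53.1% of all genes. On replicate 1, 54 members did (68.4%), against 42.7% of all genes. On replicate 2, 24 members did (30.4%), near the 33.2% of all genes. KL1 arrays had medians of -0.0036, -0.019 and -0.019, and control arrays, set against their own mean, had -0.0076, -9.7e-05 and 0.0092. Replicate 3 was the lowest of all 9 arrays for 45 members (57.0%), against 23.9% of all genes, and replicate 2 was the highest for 35 (44.3%), against 21.2%. For 52 members replicate 3 was below and replicate 2 above the control mean, a count that was not made over all genes. Without replicate 3 the median difference was 0.016, against 0.0185 over all genes. Then 32 members were lower (40.5%, against 35.6% of all genes) and 47 higher (59.5%, against 64.3%). In that setting 23 members that were lower became higher, 1 went the other way, 31 stayed lower and 24 stayed higher.

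**Figure D1:**
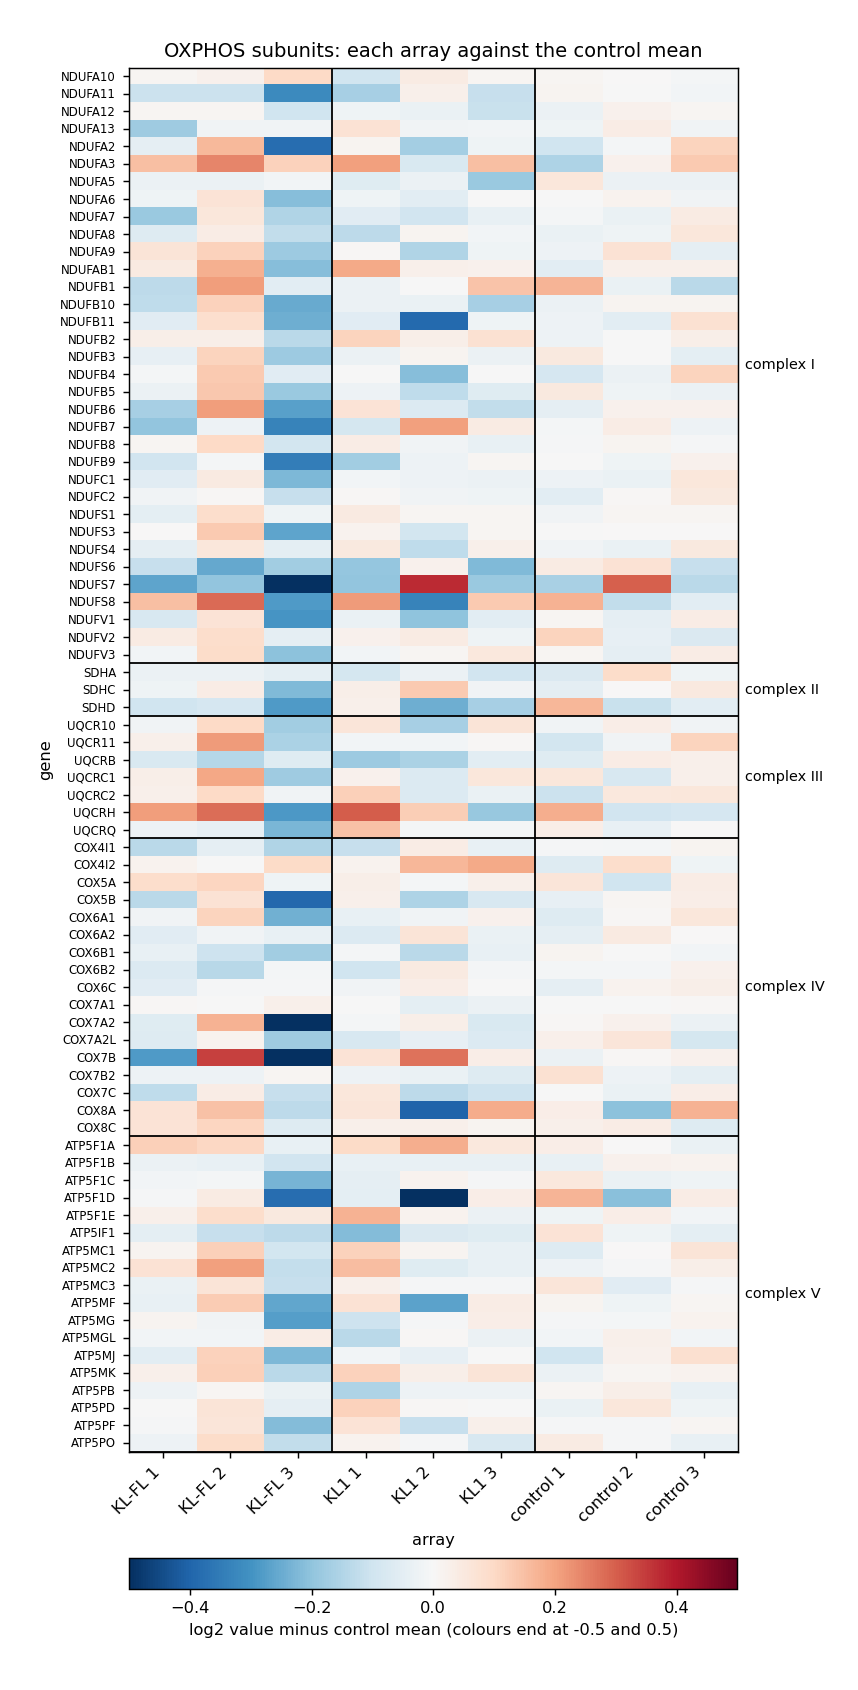
Log2 value of each of the 79 subunits on each of the 9 arrays minus that gene's control mean, with genes down the page by complex and arrays across it. The column of KL-FL replicate 3 is blue for 72 of 79 genes and that of KL-FL replicate 2 is red for 55. Of all genes, 53.1% lay below the control mean on replicate 3 and 33.2% on replicate 2.

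**Figure D2:**
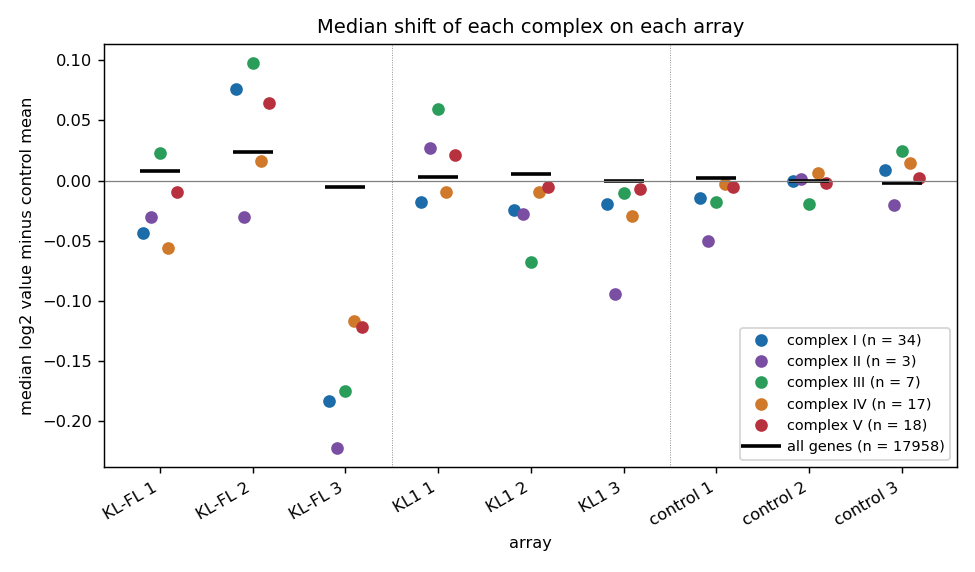
Median over the subunits of each complex (coloured points) and over all 17958 genes (black bars) of the log2 value minus the control mean, by array. On KL-FL replicate 3 the 5 complexes lie between -0.22 and -0.12, while all genes are at -0.0049.

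Other gene groups were low on that array too, and their part in the result was not tested. The median of 71 mitochondrial ribosomal proteins was -0.029, 0.042 and -0.19 on KL-FL replicates 1, 2 and 3. For 69 cytosolic ribosomal proteins it was -0.021, 0.029 and -0.071, and for 12 enzymes of the tricarboxylic acid cycle -0.018, 0.035 and -0.11. For 45 assembly factors, which build the complexes without staying in them, it was -0.0040, 0.033 and -0.072. All 4 groups had the order of the subunits, with replicate 2 highest and replicate 3 lowest. The medians over all genes had that order too, with smaller values, at 0.0079, 0.024 and -0.0049. The 12 epithelial markers had medians of 0.0027, 0.024 and -0.036 on the same arrays.

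Members also varied more between replicates than genes at large. The median within-group SD was 0.085 for members and 0.061 for all genes. It was 0.11 in KL-FL, 0.074 in KL1 and 0.044 in control cells for members, against 0.058, 0.048 and 0.042 for all genes. The excess over all genes was largest in KL-FL cells and smallest in control cells. Members were brighter than genes at large, at mean log2 levels of 7.54 and 5.52 on control replicate 2, and levels were not matched. Median standard errors were 0.062 for members and 0.048 for all genes. They were higher for mitochondrial ribosomal proteins (0.074) and supercomplex and cristae factors (0.067). Lower values were those of assembly factors (0.053), cytosolic ribosomal proteins (0.050) and tricarboxylic acid cycle enzymes (0.048). By complex the median within-group SD was 0.11 for complex III, 0.097 for complex I, 0.094 for complex II, 0.076 for complex V and 0.065 for complex IV. COX7A1 varied least, at 0.016, and COX7B most, at 0.34.

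In KL1 cells, too, no subunit passed the test against control. Of the 79, 52 had a lower mean in KL1 than in control cells (65.8%, against 47.8% of all genes) and 27 a higher one. The median difference was -0.019, against 0.0026 over all genes, and the range ran from -0.29 (ATP5F1D) to 0.12 (COX4I2). At adjusted p under 0.05 limma called 0 members, where it called 0.00557% of all genes, and the smallest adjusted p was 0.927. At an unadjusted p under 0.05 there was 1 member, UQCRB, which was lower (1.27%, against 2.11% of all genes lower and 2.99% higher). Without KL1 replicate 2 the median was -0.0087. Both comparisons share the 3 control arrays, so their values are set side by side below and their likeness is no result.

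Between KL-FL and KL1 cells 51 members had the lower mean in KL-FL (64.6%, against 45.6% of all genes) and 28 the higher one. The median difference of KL-FL minus KL1 was -0.019, against 0.0058 over all genes, with a range from -0.37 (COX7B) to 0.17 (ATP5F1D). limma called 0 members at adjusted p under 0.05, where it called 0% of all genes, and the smallest adjusted p was 0.855. At an unadjusted p under 0.05 there were 2, NDUFB7 and UQCRQ, both lower in KL-FL (2.53%, against 1.55% of all genes lower and 3.49% higher). Without KL-FL replicate 2 there were 10 in both directions together, and the share over all genes was not counted. Without KL-FL replicate 3 the direction turned, with a median of 0.034, against 0.017 over all genes. In that setting 18 members were lower in KL-FL (22.8%, against 36.6% of all genes) and 61 higher (77.2%, against 63.3%).

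**Figure D3:**
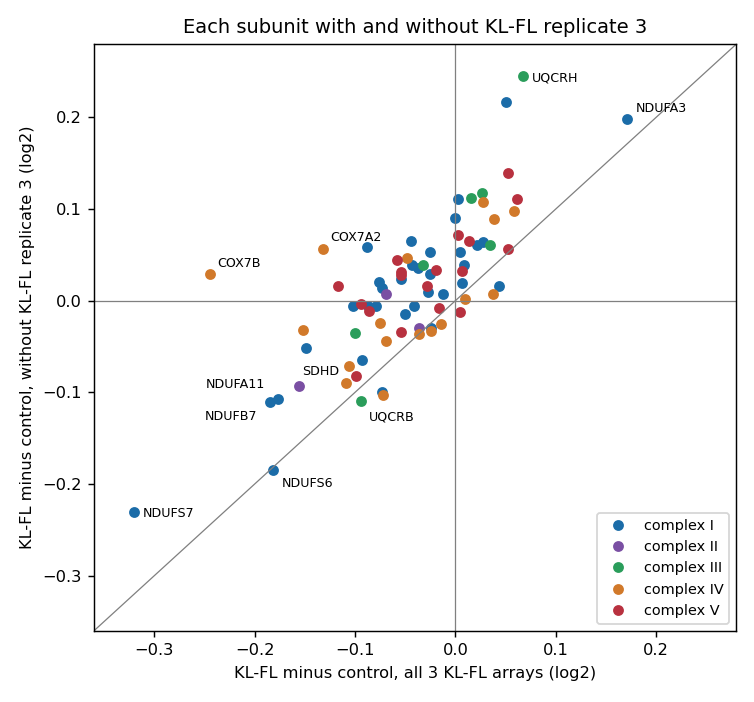
Log2 difference of KL-FL minus control for each of the 79 subunits with all 3 KL-FL arrays (horizontal) and without KL-FL replicate 3 (vertical), coloured by complex; the diagonal marks equal values. Most points lie above the diagonal, and COX7B is at -0.24 with all arrays and 0.029 without replicate 3.

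Complex I, the entry point for electrons from NADH, had 25 of its 34 members lower in KL-FL than in control cells and a median difference of -0.042. Without KL-FL replicate 3 the median was 0.018. In KL1 cells 24 were lower than in control cells, with a median of -0.023. Against KL1, 22 were lower in KL-FL, with a median of -0.022 that turned to 0.042 without replicate 3. No member passed the test in any comparison.

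NDUFA11, a membrane-arm subunit, read 6.33, 6.33 and 6.12 in KL-FL cells, 6.27, 6.47 and 6.32 in KL1 cells and 6.45, 6.44 and 6.43 in control cells (log2 throughout, in replicate order). All 3 KL-FL arrays lay below all control arrays, while the KL1 arrays overlapped them. Its difference from control was -0.18 (SE 0.066, adjusted p = 0.688, limma) in KL-FL, a fold of 0.884, and -0.085 in KL1, and it was -0.11 in KL-FL without replicate 3. NDUFS6, a subunit of the peripheral arm whose NRF1 core is shown above, read 7.05, 6.91 and 6.99 in KL-FL cells, 6.98, 7.19 and 6.95 in KL1 cells and 7.21, 7.24 and 7.05 in control cells. The highest KL-FL array lay just under the lowest control array. The difference was -0.18 (SE 0.074, adjusted p = 0.688) in KL-FL, -0.19 without replicate 3, and -0.13 in KL1. It is thus a member whose difference did not come from replicate 3.

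NDUFS7, which carries the iron-sulphur cluster next to the quinone site and was chosen after its values were seen, differed most from control. It read 6.68, 6.75 and 6.44 in KL-FL cells, 6.75, 7.32 and 6.76 in KL1 cells and 6.78, 7.24 and 6.81 in control cells. In KL-FL cells every array was below every KL1 and control array, but replicate 2 of both KL1 and control stood far above its group. The difference of -0.32 (SE 0.17, adjusted p = 0.711, limma) was within that spread, and KL1 was level with control at -0.0036. Without KL-FL replicate 3 the KL-FL difference of NDUFS7 was -0.23. NDUFB7, an accessory subunit on the intermembrane side, read 6.52, 6.69 and 6.39 in KL-FL cells and 6.63, 6.92 and 6.76 in KL1 cells, against 6.71, 6.76 and 6.69 in control cells. It lay lower in KL-FL than in KL1 by -0.24 (SE 0.087, adjusted p = 0.855), or by -0.16 without KL-FL replicate 3, with the groups overlapping.

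Within complex I the smallest p in the KL1 comparison was that of NDUFA5, an accessory subunit of the peripheral arm. Its values were 6.20, 6.20 and 6.22 in KL-FL, 6.17, 6.20 and 6.05 in KL1 and 6.29, 6.20 and 6.20 in control cells, and the KL1 difference of -0.092 (SE 0.045, adjusted p = 0.927) rested on replicate 3. NDUFV3, of which a longer form is known, had a difference of -0.043 in KL-FL, 0.039 without replicate 3, and 0.015 in KL1. NDUFA3, named after its values were seen, had the highest difference of all members. It read 9.04, 9.13 and 9.00 in KL-FL, 9.09, 8.81 and 9.04 in KL1 and 8.73, 8.91 and 9.02 in control cells, so that the groups overlapped. Its KL-FL difference was 0.17 (SE 0.088, adjusted p = 0.709), and 0.20 without replicate 3.

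Complex II, succinate dehydrogenase, is also an enzyme of the tricarboxylic acid cycle and had 3 members here. All 3 had a lower mean in KL-FL than in control cells, with a median difference of -0.070, or -0.030 without KL-FL replicate 3, and 2 were lower in KL1, with a median of -0.069. The median of KL-FL minus KL1 was -0.029, and 0.034 without replicate 3. SDHA, the flavoprotein that oxidises succinate, read 8.94, 8.94 and 8.92 in KL-FL cells, 8.88, 8.94 and 8.88 in KL1 cells and 8.90, 9.06 and 8.95 in control cells. Its differences were -0.036 (SE 0.044, adjusted p = 0.833, limma) in KL-FL and -0.069 (adjusted p = 0.927) in KL1, and the groups overlapped. SDHC and SDHD anchor the enzyme in the membrane. SDHC read 9.59, 9.64 and 9.39 in KL-FL, 9.64, 9.74 and 9.59 in KL1 and 9.56, 9.61 and 9.66 in control cells, with differences of -0.070 in KL-FL, 0.0069 without replicate 3, and 0.047 in KL1. SDHD read 8.85, 8.86 and 8.66 in KL-FL, 8.97, 8.70 and 8.78 in KL1 and 9.11, 8.84 and 8.89 in control cells, with differences of -0.16 (SE 0.092, adjusted p = 0.719) in KL-FL, -0.093 without replicate 3, and -0.13 in KL1. With single arrays left out the SDHD difference ran from -0.21 to -0.074 in KL-FL and from -0.20 to -0.044 in KL1. Both anchors were lowest on KL-FL replicate 3.

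The rows that stood for SDHC and SDHD have neighbours in probe-set order on other chromosomes, so which locus they read is uncertain. For SDHC the 10 neighbouring probe sets lie on chromosome 17 and the gene on chromosome 1, and for SDHD they lie on chromosome 1 and the gene on chromosome 11. The rows at the genes' own places were dimmer. The SDHC row there read 6.39 ± 0.18 in KL-FL, 6.32 ± 0.11 in KL1 and 6.52 ± 0.19 in control cells, so its KL1 difference of -0.20 had the opposite sign. For SDHD that row read 7.65 in KL-FL, 7.65 in KL1 and 7.68 in control cells, with differences of -0.029 in both comparisons, and of -0.0027 in KL-FL without replicate 3. NDUFV2 and ATP5MK had the same fault. The NDUFV2 row used gave 0.027 in KL-FL and 0.014 in KL1, and the row at its own place gave -0.013 and -0.015, so the sign depended on the row. Without KL-FL replicate 3 the KL-FL values of these rows were 0.064 and 0.031. ATP5MK had no other row, and its KL-FL difference was 0.0028, or 0.072 without replicate 3.

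Complex III, which passes electrons from ubiquinol to cytochrome c, was the 1 complex whose median was not lower, at 0.015 in KL-FL with 3 of 7 members lower than in control cells. Its median was 0.061 without KL-FL replicate 3, and 0.0037 in KL1, with 3 lower. The median of KL-FL minus KL1 was 0.012, and 0.055 without replicate 3. UQCRB, which lies at the quinone site, was the member nearest to a call in KL1. It read 5.51, 5.45 and 5.53 in KL-FL cells, 5.41, 5.43 and 5.54 in KL1 cells and 5.53, 5.63 and 5.62 in control cells. The KL1 difference was -0.13 (SE 0.045, unadjusted p = 0.0176, adjusted p = 0.927, limma) and the KL-FL difference -0.094 (SE 0.045, adjusted p = 0.700), or -0.11 without replicate 3. In both klotho groups replicates 1 and 2 lay below the lowest control array and replicate 3 at or above it.

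UQCRQ, a small subunit that binds ubiquinone, read 7.67, 7.65 and 7.46 in KL-FL cells and 7.84, 7.68 and 7.68 in KL1 cells, against 7.73, 7.66 and 7.70 in control cells. Every KL-FL array was below every KL1 array, by little except on replicate 3. The difference of KL-FL minus KL1 was -0.14 (SE 0.063, adjusted p = 0.855, limma) and was -0.077 without replicate 3. UQCRH, the hinge protein that helps cytochrome c bind, was named after its values were seen. It read 5.12, 5.19 and 4.62 in KL-FL, 5.21, 5.03 and 4.72 in KL1 and 5.09, 4.81 and 4.82 in control cells, so that the groups overlapped. Its differences were 0.067 in KL-FL and 0.078 in KL1 (SE 0.17 each). Without KL-FL replicate 3 the KL-FL difference was 0.25, the highest of all members in that setting.

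Complex IV, cytochrome c oxidase, had 12 of 17 members lower in KL-FL than in control cells, with a median of -0.048, and 12 lower in KL1, with a median of -0.022. Its KL-FL median stayed below 0 without replicate 3, at -0.024, but members were then near evenly split, with 9 lower and 8 higher. The complex IV median of KL-FL minus KL1 turned, at -0.029 with and 0.014 without that array. Several of its nuclear subunits come in tissue forms, so the broad and the restricted forms were read separately. COX4I1, the broad form of the largest nuclear subunit, read 6.94, 7.03 and 6.93 in KL-FL, 6.96, 7.11 and 7.04 in KL1 and 7.07, 7.07 and 7.09 in control cells. All KL-FL arrays were below the tightly grouped controls. The difference was -0.11 (SE 0.045, adjusted p = 0.688, limma), a fold of 0.927, and -0.090 without replicate 3, while in KL1 it was -0.039 with overlap. Its hypoxia-inducible counterpart COX4I2 read 4.34, 4.32 and 4.42 in KL-FL, 4.34, 4.49 and 4.51 in KL1 and 4.26, 4.41 and 4.30 in control cells. COX4I2, dim and under the array medians over genes, had the smallest p of complex IV in KL1, with a difference of 0.12 (SE 0.057, adjusted p = 0.927).

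COX6B1, a broadly made subunit facing the intermembrane space, read 9.36, 9.29 and 9.22 in KL-FL cells, 9.39, 9.26 and 9.36 in KL1 cells and 9.41, 9.40 and 9.38 in control cells. Again every KL-FL array was below every control array. The difference was -0.11 (SE 0.045, adjusted p = 0.694, limma) in KL-FL, -0.071 without replicate 3, and -0.062 in KL1. The testis form COX6B2 read between 3.60 and 3.73 in KL-FL cells and between 3.73 and 3.76 in control cells. Its KL-FL difference was -0.072, or -0.10 without replicate 3.

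COX7B, which is encoded on the X chromosome, had the widest spread of all members. It read 6.08, 6.71 and 5.58 in KL-FL cells, 6.44, 6.64 and 6.40 in KL1 cells and 6.34, 6.37 and 6.39 in control cells. One KL-FL array lay above all controls and the other 2 below them, and the KL1 arrays lay above all controls. The differences were -0.24 (SE 0.23, adjusted p = 0.785, limma) in KL-FL, 0.12 (adjusted p = 0.961) in KL1 and -0.37 (adjusted p = 0.855) for KL-FL minus KL1. Without KL-FL replicate 3 the difference from control was 0.029 and that of KL-FL minus KL1 was -0.095, and with single arrays left out KL-FL minus KL1 ran from -0.66 to -0.095. COX7A2, the broad form of its small subunit, had the same order on the KL-FL arrays, at 7.86, 8.10 and 7.41. Its KL1 arrays read 7.91, 7.95 and 7.85 and its control arrays 7.93, 7.94 and 7.89, and the KL-FL difference was -0.13 (SE 0.14, adjusted p = 0.804), or 0.057 without replicate 3. COX5B, a peripheral subunit named after its values were seen, read 9.83, 10.04 and 9.58 in KL-FL cells, against 9.93, 9.98 and 10.00 in control cells.

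The other forms of complex IV subunits had small differences from control. COX6A1, the broad form, had differences of -0.048 in KL-FL, 0.047 without replicate 3, and -0.010 in KL1, and the muscle form COX6A2 had -0.036 and -0.013. COX7A2L, which helps complexes III and IV associate, had -0.075 in KL-FL, -0.024 without replicate 3, and -0.063 in KL1. The muscle form COX7A1 had 0.0095 and -0.028, and the restricted form COX7B2 -0.014 and -0.040, both with values near the low end of the scale. COX8A, the broad form of another small subunit, had 0.028 and -0.053, with KL1 replicate 2 low at 9.21 against 9.67 and 9.80 on the other KL1 arrays. Replicate 2 was also the lowest COX8A control array, at 9.41 against 9.65 and 9.79. Its testis form COX8C had 0.038 and 0.024. Their KL-FL differences without replicate 3 were 0.0017 for COX7A1, -0.026 for COX7B2, 0.11 for COX8A and 0.089 for COX8C. None of these passed the test against control, and their smallest adjusted p was 0.753 (limma, COX7A2L in KL-FL).

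**Figure D4:**
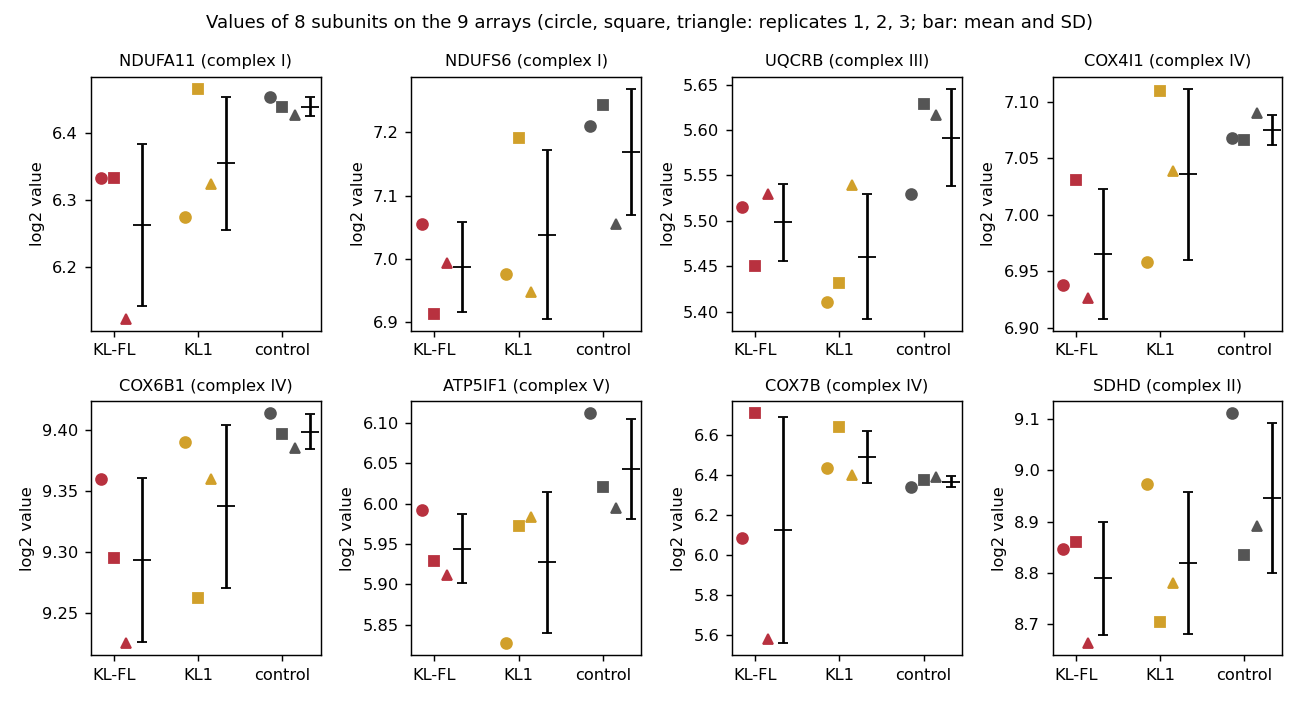
Log2 values of 8 subunits on the 9 arrays by group, each panel with its own vertical scale; circles, squares and triangles are replicates 1, 2 and 3, and the bar beside them is the mean with its SD (n = 3). KL-FL arrays lie below all control arrays for NDUFA11, NDUFS6, COX4I1, COX6B1 and ATP5IF1 and spread from 5.58 to 6.71 for COX7B.

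Complex V, the ATP synthase, had 11 of 18 members lower in KL-FL than in control cells, with a median of -0.024 that turned to 0.030 without KL-FL replicate 3. In KL1 cells 11 were lower than in control cells, with a median of -0.015, and the median of KL-FL minus KL1 was -0.016, or 0.034 without replicate 3. ATP5IF1, which inhibits the enzyme when it runs backward, was the 1 member with both klotho groups below all control arrays. It read 5.99, 5.93 and 5.91 in KL-FL, 5.83, 5.97 and 5.98 in KL1 and 6.11, 6.02 and 6.0 in control cells. The differences were -0.099 (SE 0.051, adjusted p = 0.709, limma) in KL-FL, -0.082 without replicate 3, and -0.12 (SE 0.051, adjusted p = 0.927) in KL1. ATP5F1B, the catalytic beta subunit, read 10.56, 10.54 and 10.49 in KL-FL cells, 10.54 on each KL1 array and 10.54, 10.61 and 10.60 in control cells. It had the smallest within-group SD of complex V, 0.028, and its KL-FL difference was -0.054 (SE 0.031, adjusted p = 0.714), or -0.034 without replicate 3.

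ATP5F1A, the alpha subunit of the same catalytic head, ran the other way and was named after its values were seen. It read 9.14, 9.13 and 8.99 in KL-FL, 9.12, 9.21 and 9.08 in KL1 and 9.06, 9.03 and 8.99 in control cells, and the KL1 arrays lay above all controls with a difference of 0.11 (SE 0.051, adjusted p = 0.927, limma). ATP5F1D, the delta subunit of the central stalk, had the lowest KL1 difference of all members, at -0.29 (SE 0.22, adjusted p = 0.929). That value came from KL1 replicate 2, which read 7.77 against 8.58 and 8.66 on the other KL1 arrays, while its control arrays read 8.80, 8.42 and 8.66. NDUFS8 and NDUFB11 of complex I, also named after their values were seen, were low on the same array, at 6.90 and 8.48.

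The 3 genes ATP5MC1, ATP5MC2 and ATP5MC3 encode an identical mature c-ring protein with different import sequences. Their differences were 0.013, 0.053 and -0.028 in KL-FL and 0.031, 0.019 and 0.0042 in KL1. KL-FL replicate 3 was the lowest KL-FL array for each, and without it the KL-FL differences were 0.065, 0.14 and 0.016. ATP5MGL, a copy of the membrane subunit gene ATP5MG and dim at 4.28 ± 0.029 in KL-FL, 4.23 ± 0.074 in KL1 and 4.28 ± 0.022 in control cells, had the smallest p of complex V between KL-FL and KL1, with a difference of 0.057 (adjusted p = 0.855, limma). ATP5PF, whose window held all 4 motifs, is a stalk subunit and read 5.96, 6.02 and 5.74 in KL-FL, 6.03, 5.85 and 5.99 in KL1 and 5.96, 5.96 and 5.97 in control cells. Its KL-FL difference was -0.054, or 0.028 without replicate 3.

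Groups that did not overlap were few. In KL-FL against control 6 members lay wholly below, which were ATP5IF1, COX4I1, COX6B1, NDUFA11, NDUFS6 and NDUFS7 (7.59%, against 3.25% of all genes), and 0 lay wholly above (against 7.13%). In KL1 against control ATP5IF1 and NDUFA7 lay wholly below (2.53%, against 4.34%) and ATP5F1A, ATP5MK and COX7B wholly above (3.8%, against 5.13%). NDUFA7 and ATP5MK were chosen by this count, with KL1 differences of -0.063 and 0.070. Between KL-FL and KL1, NDUFS7 and UQCRQ lay wholly below in KL-FL (2.53%, against 2.21%) and 0 wholly above (against 4.67%). The shares in KL1 and between the klotho groups were near those of all genes or under them.

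The 25 members with an NRF1 or ETS core had a median KL-FL difference of -0.054, with 16 lower than control, and the 41 without had -0.027, with 28 lower. These medians were 0.020, with 12 lower, and 0.029, with 14 lower, when KL-FL replicate 3 was left out. In KL1 the medians were -0.010 with a core and -0.019 without. Of the factors themselves, NRF1 differed from control by 0.0093 in KL-FL, -0.00092 without replicate 3, and 0.0084 in KL1. GABPA, the DNA-binding part of GABP, differed by -0.034 in KL-FL, -0.070 without replicate 3, and -0.036 in KL1. YY1 differed by 0.099 in KL-FL, 0.16 without replicate 3, and 0.13 in KL1, where its 3 arrays lay above all control arrays (adjusted p = 0.927, limma). TFAM, which packages and transcribes mitochondrial DNA, differed by 0.042 and 0.044. Over 18 regulators of mitochondrial gene expression the medians were -0.0063 and 0.0012, with 8 higher and 10 lower in KL-FL (0.0080, with 9 higher and 9 lower, without replicate 3), and limma called 0 (smallest adjusted p 0.689 and 0.927).

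The genes that work around the complexes gave no call either. Of 45 assembly factors, 21 were higher and 24 lower in KL-FL than in control cells, with a median of -0.00098 that turned to 0.035, with 28 higher and 17 lower, without KL-FL replicate 3. In KL1 16 were higher and 29 lower, with a median of -0.013. LYRM7, which guards the iron-sulphur protein of complex III before insertion, read 5.67 ± 0.073 in KL-FL, 5.64 ± 0.058 in KL1 and 5.85 ± 0.065 in control cells (SD, n = 3 each). Its differences were -0.18 (SE 0.051, adjusted p = 0.637, limma) and -0.21 (SE 0.051, adjusted p = 0.927), with neither klotho group overlapping the control, and it was named after its values were seen. Without KL-FL replicate 3 the KL-FL difference of LYRM7 was -0.135. Of 12 genes for cytochrome c, CYC1, coenzyme Q synthesis and DMAC2L, a factor of the ATP synthase, 7 were higher and 5 lower in KL-FL, with a median of 0.031, and 7 higher and 5 lower in KL1, with a median of 0.0021. Of 15 supercomplex and cristae factors, 7 were higher and 8 lower in KL-FL, with a median of -0.0093 that turned to 0.017 without KL-FL replicate 3, and 6 higher and 9 lower in KL1, with a median of -0.013.

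Tricarboxylic acid cycle enzymes and ribosomal proteins served as other large housekeeping groups. Of 12 cycle enzymes, 10 were lower in KL-FL than in control cells, with a median of -0.036, and 9 lower in KL1, with a median of -0.018. The KL-FL median turned to 0.011, with 5 lower and 7 higher, without KL-FL replicate 3. Of 71 mitochondrial ribosomal proteins, 57 were lower in KL-FL, with a median of -0.062 that turned to 0.011 without KL-FL replicate 3, and 42 in KL1, with a median of -0.022. Of 69 cytosolic ribosomal proteins, 49 were lower in KL-FL, with a median of -0.021, and 42 in KL1, with a median of -0.016. Leaving out KL-FL replicate 3 gave 33 lower in KL-FL, with a median of 0.00067. limma called 0 genes of these lists in any comparison.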

How the data were processed

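The values are log2 expression levels as the authors deposited them, in 1 table of 33297 probe sets by 9 arrays; they run from 1.79 to 12.4, from which the log base was inferred. Per the submitters' processing notes Partek 6.6 was used, but background correction and normalization are not stated in those notes, the labels or the file. Arrays were placed in groups by their titles. Probe sets were named through the platform annotation: 19181 named 1 gene, 2055 several, and 12061 were unnamed here. Symbols were updated through a RefSeq gene table, which changed 0, and 38 had no match. The brightest row stood for each of 17958 genes, with no filter on dim genes, so all 79 members were tested.

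A linear model with 3 groups was fitted to all genes in R 4.3.3 by limma 3.58.1, with empirical Bayes moderation. Tests are two-sided, and p-values were adjusted over all 17958 genes by the Benjamini-Hochberg method with a threshold of 0.05. The script was tested on simulated data. A probe set's place was judged from the 10 neighbouring IDs. Same-numbered KL1 and control arrays deviated together (correlations 0.113, 0.322 and 0.186), so the numbers may pair these arrays; those with KL-FL did not, at 0.097 or less with control.

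The genes named are the SDH subunits; in each complex the 2 members with the smallest p in KL-FL minus control and the 1 with the smallest in each other comparison; subunits with isoforms; and KL and DDIT3. Members and lists were chosen with earlier results of these data known. Alternatives covered normalization, dim genes, array weights, variance, probe sets, pairing and leaving out each array.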

Additional observations from a re-analysis of the deposited data

How the results depend on the processing

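Under every setting tried limma called 0 of the 79 subunits in any comparison, and the median difference in KL-FL against control kept its sign in all settings that used all 9 arrays, from -0.048 (dim genes left out) to -0.023 (array weights). With single arrays left out it ran from -0.085 to 0.016, and for KL-FL minus KL1 from -0.065 to 0.034. In KL1 against control the median of -0.019 was -0.0076 after quantile normalization, and ran from -0.027 to -0.0087 with single arrays left out. Unadjusted p-values under 0.05 in KL-FL against control numbered 4, but 15 with array weights (smallest adjusted p 0.0553), where KL-FL replicate 1 weighed 6.76 and replicate 3 0.265. They numbered 12 without KL-FL replicate 2, 2 without KL-FL replicate 3, 1 without control replicate 1 and 0 without control replicate 2 or with each gene's own variance. All such counts here take both directions, and shares over all genes were counted only in the main fit and without KL-FL replicate 3. With the replicate number as a block they numbered 7, 3 and 3 in KL-FL against control, KL1 against control and KL-FL against KL1, against 4, 1 and 2 without it; the block changed no call and left the medians at -0.037, -0.019 and -0.019. Genes below the 50th percentile left out kept 69 members. Rows at the genes' own places, an alternative chosen after seeing the data, gave SDHC differences of -0.20 in KL1 against control and 0.070 for KL-FL minus KL1, and the mean of its rows gave -0.078 in KL1. COX7A1 was -0.011 in KL-FL after quantile normalization, COX8A 0.018 in KL1 with array weights, and ATP5MC3 in KL1 -0.00028 with centred arrays and -0.013 after quantile normalization. With single arrays left out, these differences from control changed sign in KL-FL, each given from lowest to highest: SDHA -0.073 to 0.010, SDHC -0.12 to 0.0069, NDUFV3 -0.11 to 0.039, COX6A1 -0.13 to 0.047, COX7A2 -0.29 to 0.057 and COX7B -0.54 to 0.029. The same held for COX7B2 at -0.040 to 0.024, COX8A at -0.075 to 0.12, ATP5MC1 at -0.038 to 0.065, ATP5MC2 at -0.023 to 0.14, ATP5MC3 at -0.075 to 0.016 and ATP5PF at -0.11 to 0.028. In KL1 they were NDUFV3 -0.0076 to 0.033, COX6A1 -0.043 to 0.019, COX6A2 -0.051 to 0.015, COX6B2 -0.056 to 0.018, COX7A2 -0.043 to 0.0092 and COX8A -0.17 to 0.12. COX8C was at -0.0089 to 0.042, ATP5MC1 at -0.011 to 0.065, ATP5MC2 at -0.049 to 0.059 and ATP5MC3 at -0.024 to 0.035. The causes were not tested. Not every gene given with a value was followed through all settings. The array signal near the low end of the scale limits COX6B2, COX7A1, COX7B2 and COX8C, and COX4I2 and ATP5MGL were dim too.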

Other observations

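Several genes that work beside the complexes lay further from control than most subunits. They were chosen after their values were seen, and none passed limma's test over all genes. DLD, the subunit shared by the pyruvate and 2-oxoglutarate dehydrogenases, averaged 8.05 ± 0.025 in KL-FL, 7.92 ± 0.028 in KL1 and 7.95 ± 0.050 in control cells (log2, SD, n = 3 each). Its KL-FL arrays lay above all KL1 and control arrays, by 0.13 over KL1 (SE 0.035, adjusted p = 0.855) and 0.10 over control (adjusted p = 0.688), and 10 of the other 11 cycle enzymes had a lower mean in KL-FL than in control cells, or 5 of them without KL-FL replicate 3. POLG2, an accessory subunit of the mitochondrial DNA polymerase, averaged 6.34 ± 0.074 in KL-FL, 6.25 ± 0.068 in KL1 and 6.22 ± 0.033 in control cells.

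CHCHD2, a small protein of the intermembrane space, averaged 8.46 ± 0.28 in KL-FL, 8.6 ± 0.033 in KL1 and 8.71 ± 0.071 in control cells, with both klotho groups below all control arrays. Its KL-FL difference of -0.26 (SE 0.12, adjusted p = 0.695, limma) was -0.094 without KL-FL replicate 3. HIGD1A, a hypoxia-induced partner of complex IV, averaged 7.90 ± 0.10 in KL-FL, 7.88 ± 0.061 in KL1 and 8.04 ± 0.071 in control cells, and its KL1 difference was -0.15 (SE 0.059, adjusted p = 0.927). Among complex IV assembly factors COA3 differed from control by -0.23 in KL-FL and -0.15 in KL1, and SURF1 by 0.10 and 0.22, with groups that overlapped. Without KL-FL replicate 3 the KL-FL differences were -0.15 for COA3 and 0.21 for SURF1.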
